A study of Homo sapiens with 6 samples.

Results

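Heat shock proteins of the cytosol and the transcription factor HSF1 were followed in a human osteosarcoma cell line grown for 7 days inside a bone scaffold or on a flat surface. The set comprised 10 genes, HSPA1A, HSPA1B, HSPA8, HSPA4, HSPH1, HSP90AA1, HSP90AB1, DNAJA1, DNAJB1 and HSF1, taken by symbol from the 62703 Ensembl gene IDs of the deposited table, and all 10 had a row. The cells were MNNG/HOS Cl #5, which the labels describe as osteosarcoma cells of wild-type genotype. In the first group, called 3D here, cells had been seeded within demineralized bone matrix, and in the second, called 2D, they had been grown flat. Both groups shared the same medium, a high-glucose DMEM with L-glutamine, fetal bovine serum and antibiotics, and no drug is named for either. Each group had 3 libraries. The labels do not say whether these came from separate cultures, so the p-values measure the spread between these libraries, which may be technical, and all of them come from 1 cell line.

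Chaperones of the HSP70 family bind unfolded stretches of proteins in cycles driven by ATP. J-domain proteins of the HSP40 family deliver the substrates and start ATP hydrolysis, while proteins of the HSP110 family exchange the nucleotide. Clients such as kinases and steroid receptors can then pass to HSP90, helped by co-chaperones. HSF1 is the main activator of these genes during heat and other stress that unfolds proteins, and many tumour cells depend on high chaperone levels. Activity of HSF1 is controlled largely through its protein, by trimer formation and phosphorylation, which transcript levels do not show.

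RNA was sequenced after poly(A) enrichment, and the values are FPKM, fragments scaled by gene length and by the size of the library. The library totals implied by the values were 13382627 to 16422105 reads in 3D and 13694342 to 14286993 in 2D. On the second principal component of all tested genes, 3D replicate 1 stood apart from the other 3D libraries, at 20.9 against -5.7 and -16. Of 9 osteoblast lineage markers, RUNX2, COL1A1 and SPARC reached a mean of 1 FPKM, and the summed level of the 9 was 89.4 to 113 FPKM in 3D and 58.9 to 71.5 in 2D. The markers did not move together. COL1A1 was at 36.6 to 50.0 FPKM in 3D and 7.26 to 10.1 in 2D. SPARC overlapped, at 47.9 to 56.2 and 49.7 to 59.4, as did RUNX2, at 0.948 to 3.69 and 0.477 to 0.953. BGLAP was lower in 3D, at 0.0848 to 0.312 against 0.438 to 0.64. Of 9 markers of blood and marrow, CD68, HBB, HBA1 and HBA2 reached that mean, CD3E was listed at 0 in all libraries, and the sum was 6.02 to 12.7 FPKM in 3D against 19.3 to 49.7 in 2D. CD68 was at 2.49 to 4.36 FPKM in 3D and 16.7 to 22.1 in 2D. The haemoglobin genes were uneven within 2D. In 2D replicate 3, HBB, HBA1 and HBA2 were at 0.905, 1.02 and 0.498 FPKM, below the 2.43, 4.07 and 1.66 of 3D replicate 3. The sums for 4 endothelial markers were 0.248 to 0.385 and 0.18 to 0.284 FPKM, with CDH5 at 0. The 4 adipocyte markers summed to 0.926 to 1.44 and 0.467 to 0.719 FPKM, with ADIPOQ and LEP at 0. FABP4 made up most of this, at 0.926 to 1.4 FPKM in 3D and 0.42 to 0.64 in 2D. PLIN1 went the other way, at 0 to 0.0347 and 0.0466 to 0.0894. The 4 epithelial markers summed to 1.39 to 1.68 and 1.32 to 1.65 FPKM, with KRT5 and KRT14 at 0. Nearly all of this was EPCAM, which reached a mean of 1 FPKM, at 1.39 to 1.67 in 3D and 1.31 to 1.65 in 2D. The part of these differences in the results below was not tested. In such bulk RNA, fewer cells of a kind and less RNA per cell cannot be told apart.

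HSF1 trimers bind repeats of the unit GAA and its reverse complement TTC in alternating order, and sequences before the transcription starts were searched for them. The windows were the 250 bases before each RefSeq start (GRCh38.p14). They covered 9 of the 10 genes, 14 windows in all, and HSF1 was not among them. The motif of 2 units was GAANNTTC or TTCNNGAA, where N is any base. The motif of 3 units adds any 2 bases and the next unit in the alternation, so each of its matches also holds a 2-unit match. Both strands were covered. The 3-unit motif was found for 3 of the 9 genes, against 0.557% of 27305 genes with windows of this length, a gene with several starts being counted once. The 2-unit motif was found for 7 of the 9, against 14.0%. The stretches with matches are shown because they part the members into those with 3 units, those with 2 and those with none, with the matched letters in capitals.

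HSPA8, 230 bases before the start (chr11:123062346-123062374, minus strand): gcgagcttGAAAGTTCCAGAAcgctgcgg
HSPA8, 55 bases before the start (chr11:123062171-123062199, minus strand): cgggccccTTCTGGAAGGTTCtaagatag
HSP90AA1, 88 bases before the second start (chr14:102087112-102087140, minus strand): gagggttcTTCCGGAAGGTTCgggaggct
HSP90AB1, 165 bases before the third start (chr6:44247770-44247798, plus strand): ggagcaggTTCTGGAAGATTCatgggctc
HSP90AB1, 112 bases before the third start (chr6:44247823-44247851, plus strand): tgagattgTTCTGGAAGCTTCtggattct
DNAJA1, 198 bases before the start (chr9:33025067-33025090, plus strand): gggctccaGAAGATTCcacgagcg
DNAJB1, 77 bases before the second start (chr19:14518459-14518482, minus strand): gcggggcgGAAGGTTCtggagggg
DNAJB1, 47 bases before the second start (chr19:14518429-14518452, minus strand): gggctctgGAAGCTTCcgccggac
HSPA1A, 106 bases before the start (chr6:31815429-31815452, plus strand): aaaccctgGAATATTCccgacctg
HSPA1B, 105 bases before the start (chr6:31827625-31827648, plus strand): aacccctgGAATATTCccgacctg

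HSP90AA1 also had a separate 2-unit match 68 bases before its second start. HSPA4 and HSPH1, the HSP110 genes, had no match to either motif, and their windows are printed for that reason, all in lower case since no letter matched. The window of HSPA4 ends where the annotated gene begins.

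HSPA4 (chr5:133051763-133051961, plus strand): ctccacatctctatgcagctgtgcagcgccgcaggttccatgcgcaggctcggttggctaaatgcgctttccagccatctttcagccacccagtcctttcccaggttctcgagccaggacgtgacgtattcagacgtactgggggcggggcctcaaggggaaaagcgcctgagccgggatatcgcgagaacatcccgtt
HSPH1 (chr13:31162389-31162638, minus strand): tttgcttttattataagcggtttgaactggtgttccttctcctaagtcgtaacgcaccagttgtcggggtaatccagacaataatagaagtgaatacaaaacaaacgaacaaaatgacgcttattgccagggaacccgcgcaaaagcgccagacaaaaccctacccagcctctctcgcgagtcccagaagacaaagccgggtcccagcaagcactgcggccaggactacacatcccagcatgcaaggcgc

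A match describes letters and is neither a binding site nor a cause, and the lack of a match says only that these letters are not in the window.

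In the scaffold, HSPA4 and HSPH1, DNAJA1 and HSP90AB1 were higher than in flat culture, while HSPA8, HSP90AA1 and DNAJB1 did not pass the test. Of the 10 genes, 7 reached 1 FPKM in at least 3 libraries and were tested, of which 4 were called higher and 0 lower in 3D (limma on log2(FPKM + 1), Benjamini-Hochberg adjusted p under 0.05 over 12843 genes). Among all tested genes 33.3% were called higher and 18.1% lower, or 51.4% in either direction. The fitted change was above 0 for all 7, so 0 were lower at an unadjusted p under 0.05 as well, and voom on worked-out reads called 4 higher (33.6% of all genes) and 0 lower (18.4%). The median log2 change of the 7 was 0.45, against 0.144 for all tested genes. For 5 of the 7, every 3D library lay above every 2D library, which held for 39.0% of all tested genes, and for none of the 7 was it the reverse, which held for 21.9% (60.9% in either direction). The highest 3D value was that of 3D replicate 1 for 6 of the 7. With the FPKM rescaled by median ratios, which moved the median log2 change of all genes to 0.008 and the calls to 24.6% higher and 24.5% lower, 3 of the 7 remained called higher, and these were HSPA4, HSPH1 and DNAJA1. Rescaling to a common upper quartile also called 3 higher and 0 lower, against 25.3% and 23.8% of all genes.

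**Figure D1:**
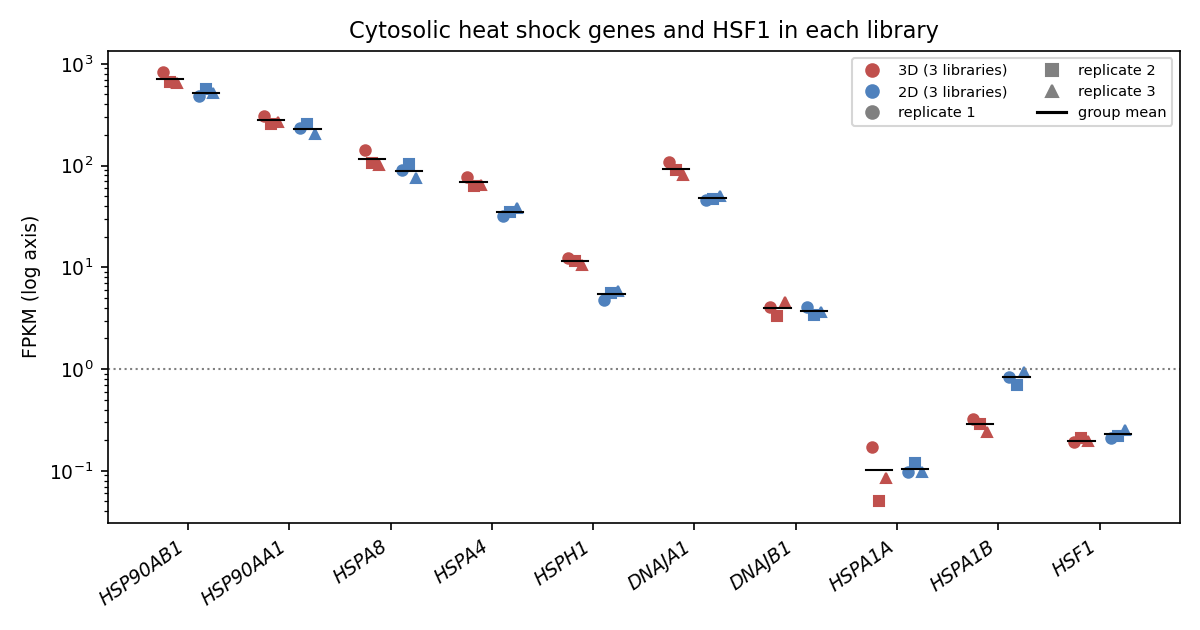
FPKM (log axis) of the 10 genes in each library, 3D in red and 2D in blue, with the marker shape giving the replicate number, a black bar for each group mean and a dotted line at 1 FPKM. HSPA4, HSPH1 and DNAJA1 show the widest gaps between groups among the 7 tested genes, and HSPA1A, HSPA1B and HSF1 lie under the line in every library.

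HSPA4 and HSPH1 encode cytosolic HSP110 proteins, which act as nucleotide exchange factors for HSP70 and hold unfolded proteins in solution. HSPA4 (ENSG00000170606, chromosome 5, 133051962 to 133106449; positions of genes are those of GENCODE 29 on GRCh38) was at 76.9, 63.6 and 64.8 FPKM in 3D replicates 1 to 3 and at 31.9, 35.2 and 37.9 in 2D replicates 1 to 3. Every 3D library was above every 2D library, and the change was 0.94 on the log2(FPKM + 1) scale (SE 0.11, limma adjusted p = 0.000861). HSPH1 (ENSG00000120694, chromosome 13, 31134974 to 31162388) was at 12.4, 11.4 and 10.7 FPKM in 3D and at 4.81, 5.57 and 5.87 in 2D. The groups were again apart, and the log2 change was 0.96 (SE 0.10, limma adjusted p = 0.000603), or 2.12-fold by the ratio of mean FPKM. Of all tested genes, 93.6% had a smaller change than HSPH1 and 93.3% a smaller one than HSPA4.

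Within a library, the log2 ratio of HSPH1 to HSPA4 was -2.63, -2.48 and -2.60 in 3D and -2.73, -2.66 and -2.69 in 2D. The groups did not overlap, but the difference of 0.12 came with an exact permutation p of 0.1 (2-sided), the smallest that 3 libraries against 3 can give, and 0.133 after adjustment over the 4 ratios computed. The genes whose log2(FPKM + 1) followed HSPH1 most closely over the 6 libraries were SLC39A14, SF3B3, MPRIP, CTCF and GNL3L, with Pearson r of 0.999 to 0.9998. Such likeness was common, since 289 of 11696 tested genes with a symbol had an r above 0.99.

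HSPA8 encodes the constitutive HSP70, HSC70, which also uncoats clathrin vesicles and feeds chaperone-mediated autophagy. HSPA8 (ENSG00000109971, chromosome 11, 123057489 to 123063230) was at 141, 105 and 101 FPKM in 3D and at 89.5, 103 and 75.1 in 2D. The groups overlapped, since 2D replicate 2 lay above 3D replicate 3, and the log2 change of 0.37 did not pass (SE 0.17, limma adjusted p = 0.112). Without 3D replicate 1, the highest library, the change of HSPA8 was 0.22. In mean FPKM it was the third most abundant of the 10 genes in both cultures.

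HSP90AB1 and HSP90AA1 encode the constitutive and the stress-inducible form of cytosolic HSP90. HSP90AB1 (ENSG00000096384, chromosome 6, 44246166 to 44253888) was the most abundant of the 10, with 827, 662 and 653 FPKM in 3D and 483, 562 and 515 in 2D. The groups did not overlap, and the log2 change was 0.45 (SE 0.13, limma adjusted p = 0.0223). This call was lost under median-ratio scaling (0.27, limma adjusted p = 0.149), upper-quartile scaling (0.29, adjusted p = 0.105), with no filter on low values (adjusted p = 0.055) and without 2D replicate 1 (0.40, adjusted p = 0.0676).

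HSP90AA1 (ENSG00000080824, chromosome 14, 102080738 to 102139699) was at 310.5, 258 and 269 FPKM in 3D and at 235, 254 and 203 in 2D. Every 3D library was above every 2D library, though 3D replicate 2 exceeded 2D replicate 2 by little, and the log2 change of 0.28 did not pass (SE 0.13, limma adjusted p = 0.104). The log2 ratio of HSP90AA1 to HSP90AB1 was -1.41, -1.36 and -1.28 in 3D and -1.04, -1.15 and -1.35 in 2D. The groups overlapped at 2D replicate 3, and the difference was -0.17 (exact permutation p = 0.2, adjusted 0.2). The HSP90 pair supplied 65.3 to 67.2% of the reads of the 10 genes in 3D and 68.4 to 69.4% in 2D. All 10 genes together took 0.875, 0.702 and 0.702% of the reads of the 3D libraries and 0.556, 0.621 and 0.524% of those of the 2D libraries.

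Of the J-domain genes, DNAJA1 was called higher and DNAJB1 did not pass. DNAJA1, a farnesylated partner of HSP70, is a class A J-domain protein (ENSG00000086061, chromosome 9, 33025211 to 33039907) and was at 108, 91.5 and 80.04 FPKM in 3D and 46.4, 46.6 and 50.2 in 2D. The groups were far apart, by 0.94 on the log2 scale (SE 0.12, limma adjusted p = 0.00114), and 93.2% of all tested genes had a smaller change. DNAJB1, a class B J-domain protein, is strongly induced by heat and helps HSP70 to dissolve aggregates (ENSG00000132002, chromosome 19, 14514770 to 14529770). It was at 4.11, 3.33 and 4.61 FPKM in 3D and at 4.06, 3.41 and 3.62 in 2D. The groups overlapped, and the log2 change of 0.09 (SE 0.12, limma adjusted p = 0.571) became -0.05 under median-ratio scaling and -0.04 under upper-quartile scaling.

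The log2 ratio of DNAJB1 to DNAJA1 was -4.71, -4.78 and -4.12 in 3D and -3.51, -3.77 and -3.79 in 2D. All 3D libraries lay below all 2D libraries, by 0.84 on average (difference -0.84), with an exact permutation p of 0.1, again the smallest possible, and 0.133 adjusted over the 4 ratios. A ratio within a library does not depend on how libraries are scaled.

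**Figure D2:**
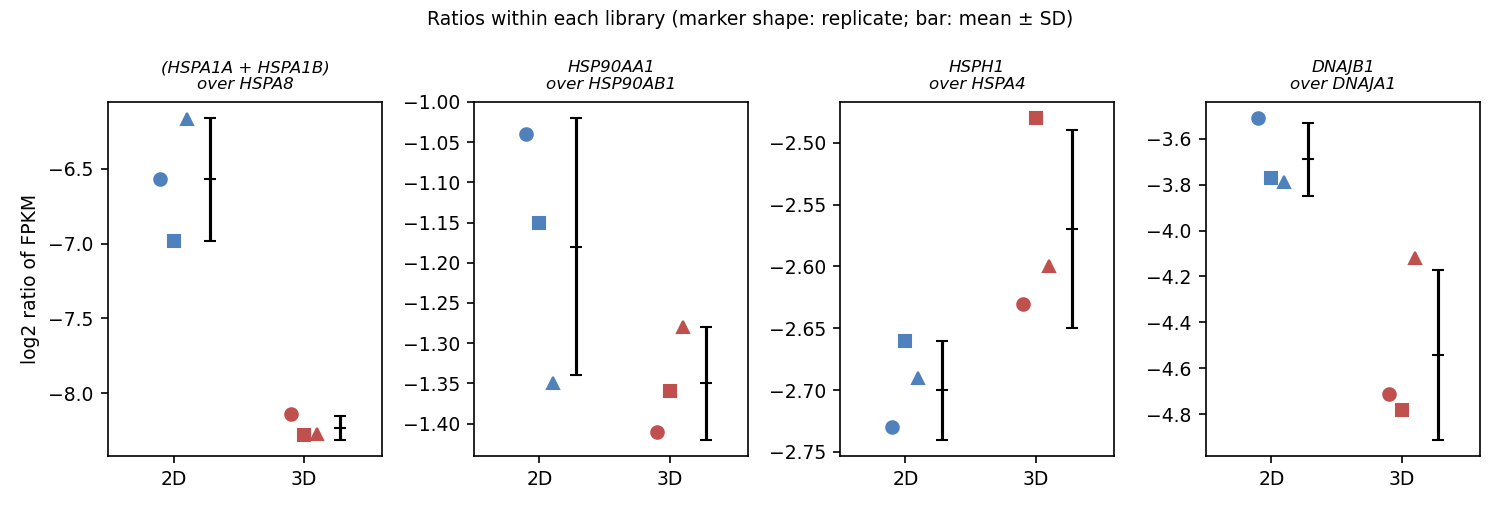
Log2 ratio of FPKM within each library for the 4 pairs of genes, with 2D in blue, 3D in red, marker shapes for replicates and black bars for the mean and SD of 3 libraries. The axes start at different values, and the groups are apart in 3 panels but overlap for HSP90AA1 over HSP90AB1, where 2D replicate 3 lies at -1.35.

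HSPA1A and HSPA1B, neighbouring genes that encode the stress-inducible HSP70, were under 1 FPKM in every library and were not tested. The coding sequences of the pair differ at 4 of 1926 bases (99.79% identical), and 67.3% of all stretches of 100 bases in the transcripts of HSPA1A also occur in another gene, chiefly HSPA1B. The sources used here do not give the rule for reads that match both, so the split between the 2 genes is uncertain. HSPA1A (ENSG00000204389, chromosome 6, 31815464 to 31817946) was at 0.173, 0.0505 and 0.0848 FPKM in 3D and 0.0985, 0.119 and 0.0975 in 2D, from 10, 3 and 6 reads and 6, 7 and 6 reads. These counts overlapped between groups.

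HSPA1B (ENSG00000204388, chromosome 6, 31827735 to 31830255) was at 0.327, 0.288 and 0.242 FPKM in 3D and 0.843, 0.696 and 0.946 in 2D. That is 11, 10 and 10 reads against 30, 24 and 34, with all 2D libraries above all 3D libraries. In the fit with no filter on low values, HSPA1B was called lower in 3D, by -0.51 on the log2 scale (SE 0.08, limma adjusted p = 0.0101). In that fit 2274 of 33243 genes were called lower. The HSPA1B call rests on the few reads given above, and 72.7% of the stretches of 100 bases in its transcripts also occur in other genes. The log2 ratio of the summed pair to HSPA8 was -8.14, -8.28 and -8.27 in 3D and -6.57, -6.98 and -6.17 in 2D, a difference of -1.66 with an exact permutation p of 0.1 and 0.133 adjusted. With HSPA1A alone over HSPA8 the difference was -0.58 (exact permutation p = 0.3), and with HSPA1B alone it was -1.91 (exact permutation p = 0.1). Over the 6 libraries the summed pair was most like PCBP2P2, CREB3, UAP1, GCAT and RNF113A (Pearson r of 0.993 to 0.9958).

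HSF1 (ENSG00000185122, chromosome 8, 144291591 to 144314722) was at 0.191, 0.209 and 0.195 FPKM in 3D and 0.209, 0.222 and 0.252 in 2D, from 32, 36 and 40 reads and 37, 38 and 45 reads. Every 3D library lay below every 2D library, but by little, and the fit without a filter gave a limma adjusted p of 0.668. The 5 tested genes most like HSF1 over the 6 libraries were MT-TR, SERINC5, MTFR1, ZXDC and NID2 (Pearson r of 0.9815 to 0.9917).

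The low values of HSPA1A and HSPA1B are not read here as low expression. Genes of the same region, some of them used by nearly every cell, were also at or near 0. The lower HSPA1B values in 3D, and the ratio of the pair to HSPA8, are not read as a fall in expression. They rest on few reads and shared sequence, and what underlies them was not tested. For HSF1 the genes of a shorter stretch beside it were also low, and its value is not read here as low expression either. Of 70 protein-coding genes within 500 kb of HSPA1A, 4 reached a mean of 1 FPKM (5.71%), against 49.5% of all 19856 protein-coding genes in the table, and 24 were listed at 0 in every library. An unbroken run of 43 genes from BAG6 to TNXB, with the HSPA1 pair inside it, lay under that mean. The 4 genes that reached it were PRRC2A (4.85 FPKM), MICA (4.79), AGPAT1 (2.04) and ATF6B (1.04), and those at 0 included TNF and LTA. Within that window, CLIC1, a chloride channel protein, was listed at 0 in all 6 libraries and CSNK2B, the regulatory subunit of casein kinase 2, was at 0.0174 to 0.0724 FPKM. Outside it, further along chromosome 6, TUBB, which encodes a beta-tubulin (start at 30720201), and ABCF1, a factor in translation (start at 30571376), were also listed at 0 in all 6 libraries. Within 500 kb of HSF1, 26 of 43 protein-coding genes (60.5%) reached the mean of 1 FPKM, a share above that of all genes. HSF1 began a run of 10 genes under the mean of 1 FPKM that ended at SLC39A4 and held DGAT1, CPSF1 and SLC52A2. In this run CPSF1 was at a mean of 0.238 FPKM in 3D and 0.232 in 2D. DGAT1, which overlaps HSF1 on the opposite strand, was at 0.0403 and 0.0485. Beyond it the levels were higher, with BOP1, on the other side of HSF1, at a mean of 32.4 FPKM in 3D and 15.5 in 2D and VPS28, next after the run, at 1.79 and 2.43. Around the 7 tested genes the share within 500 kb that reached this mean ran from 25.9% for DNAJB1 to all 8 genes for HSP90AA1. The cause of the low values was not tested, and the genes named here were chosen after their values were seen.

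**Figure D3:**
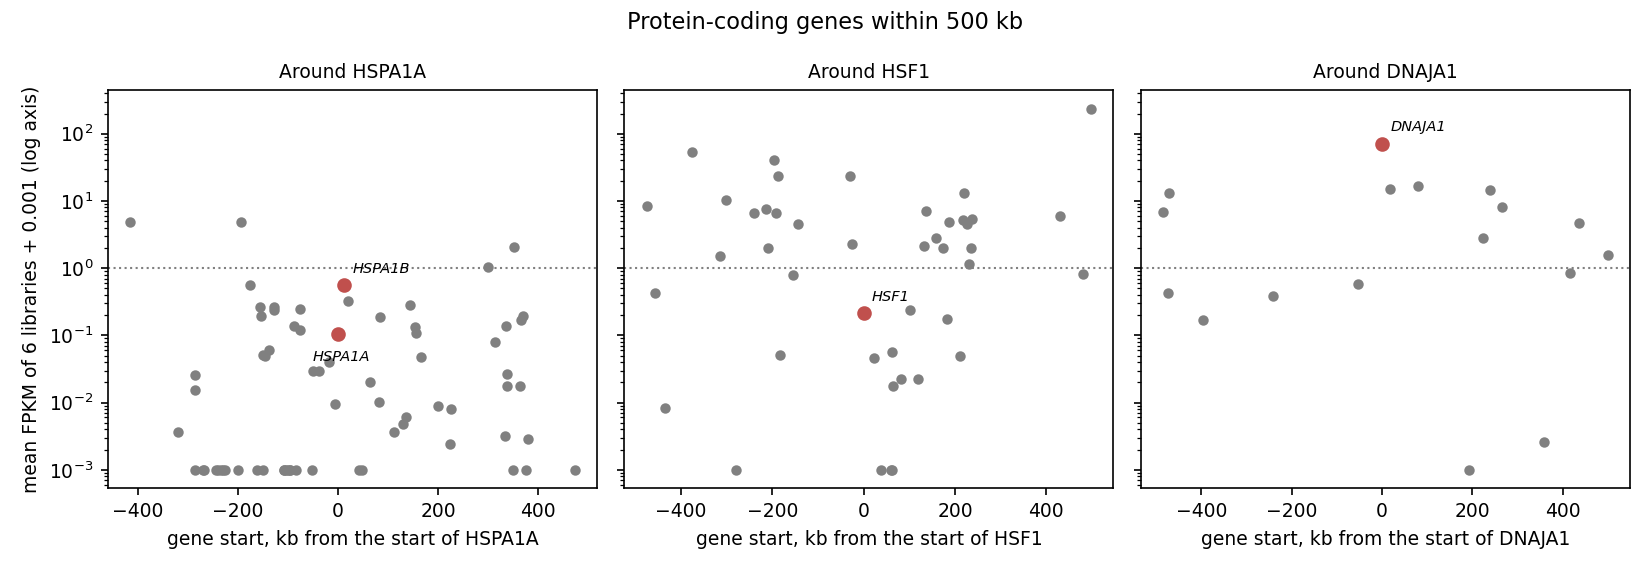
Mean FPKM over 6 libraries, plus 0.001 and on a log axis, of protein-coding genes against the distance of their starts from HSPA1A, HSF1 and DNAJA1, with members in red and a dotted line at 1 FPKM. Only 4 of the 70 neighbours of HSPA1A reach the line, genes to the right of HSF1 fall below it in a run, and 9 of 16 neighbours of DNAJA1 reach it.

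The order of the 10 genes by FPKM was HSP90AB1, HSP90AA1, HSPA8, DNAJA1, HSPA4, HSPH1, DNAJB1, HSPA1B, HSF1 and HSPA1A in both cultures. Neighbours in this order had separate ranges, except HSPA8 and DNAJA1 in 3D, where 101 to 141 FPKM met 80.04 to 108. Levels between genes rest on the gene lengths used, however, and the lengths that turn the values into whole reads were often greater than the summed exons of GENCODE 29. For DNAJB1 the length was 24275 bases, 6.61 times that of GENCODE 29, for HSPA8 14123 bases (2.91 times), for HSF1 12502 (2.36 times) and for HSPH1 15472 (1.84 times). For HSPA1B, HSPA4 and DNAJA1 the lengths lay within 0.998 to 1.09 times. With GENCODE 29 lengths the mean of DNAJB1 was 26.6 in 3D and 24.4 in 2D, above the 21.2 and 9.99 of HSPH1. HSF1 and HSPA1B also changed places in 3D, at 0.467 and 0.285. Differences between cultures for a single gene do not depend on its length, save through the pseudocount.

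**Figure D4:**
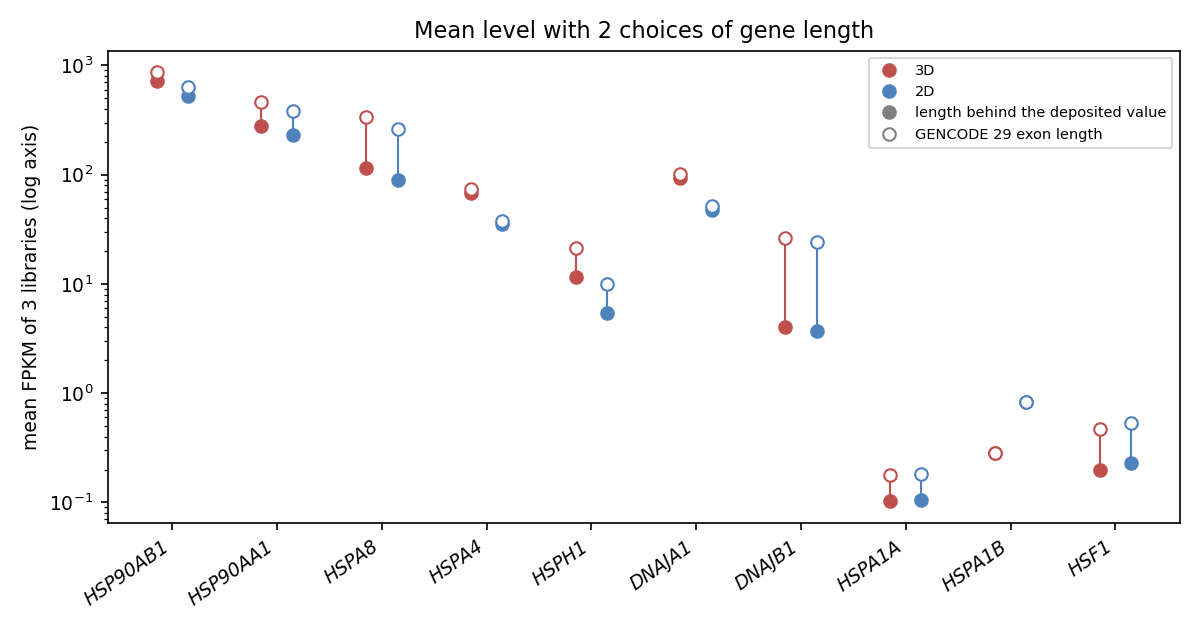
Mean FPKM of 3 libraries (log axis) of each gene in 3D (red) and 2D (blue), with the length behind the deposited value (filled) and with the GENCODE 29 exon length (open), joined by a line. The widest shift is that of DNAJB1, from 4.02 to 26.6 in 3D.

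Other genes share sequence or ground with the members. HSPA8 has 17 pseudogenes in the table, whose summed level was 5.49 ± 1.32 FPKM in 3D and 3.26 ± 0.135 in 2D (SD, n = 3 each). The 5 pseudogenes of HSP90AA1 summed to 23.6 ± 3.63 and 17.9 ± 1.70 FPKM, the 6 of HSP90AB1 to 6.26 ± 0.754 and 5.13 ± 0.973, and the 6 of DNAJA1 to 0.514 ± 0.123 and 0.14 ± 0.0379. These sums were small beside the genes themselves. HSP90AA1 overlaps WDR20, DNAJB1 overlaps TECR and MIR639, and HSF1 overlaps DGAT1 and AC233992.1, each on the opposite strand. HSPA1B overlaps AL671762.1, HSPA4 overlaps AC113410.3 and HSPA8 overlaps 3 snoRNA genes, all on the same strand. The sources used here do not give the strand setting, and without strand the reads in the overlaps cannot be told apart. WDR20 was at 1.27 FPKM in 3D and 1.15 in 2D, and TECR at 8.22 and 8.69.

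Partner genes were read from 6 lists with 72 distinct genes. Of these, 55 were tested, 16 were called higher in 3D, 12 lower, and 27 did not pass, with a median log2 change of 0.13 against 0.144 for all tested genes. Among all tested genes 33.3% were higher and 18.1% lower, and the counts of the lists lie near these shares. Median-ratio scaling gave 11 higher and 15 lower, against 24.6% and 24.5% of all tested genes.

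The further members of the HSP70 and HSP90 families, in the cytosol and in other compartments, moved in both directions. Of 13 genes, 8 were tested, 2 were higher, 3 lower and 3 did not pass (median -0.03), beside 33.3% higher and 18.1% lower among all tested genes. HSPA9, the mitochondrial HSP70 mortalin, was at 22.1, 19.5 and 19.6 FPKM in 3D and 6.69, 8.06 and 8.30 in 2D, all 3D libraries being above all 2D libraries, by 1.30 on the log2 scale (SE 0.11, limma adjusted p = 0.000336). HSPA14, which with a J-domain partner forms the ribosome-associated complex, rose from 10.6 ± 0.697 to 22.1 ± 1.59 FPKM (log2 change 0.99, limma adjusted p = 0.000444). The endoplasmic reticulum members HSPA5 and HSP90B1 fell by 0.85 and 0.96 on the log2 scale. HSPA2, at 3.53 ± 0.332 FPKM in 3D and 3.81 ± 0.221 in 2D, and HSPA4L, another HSP110 gene, at 2.74 ± 0.185 and 2.70 ± 0.442, did not pass. HSPA6, an HSP70 that is expressed almost solely after heat, was at most 0.0517 FPKM in 3D and 0.178 in 2D and was not tested.

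Among 20 co-chaperones of HSP70 and other J-domain proteins, 18 were tested, 6 were higher, 3 lower and 9 did not pass (median 0.20). These counts lie near the shares of all tested genes, 33.3% higher and 18.1% lower. DNAJC9, a J-domain histone chaperone, rose from 16.5 ± 2.45 to 31.2 ± 2.23 FPKM (log2 change 0.89, limma adjusted p = 0.00136). HSPBP1, a nucleotide exchange factor, rose by 0.60 on the log2 scale. BAG3, which links HSP70 to autophagy, was at 32.6, 34.7 and 34.1 FPKM in 3D and at 26.0, 26.1 and 26.7 in 2D (log2 change 0.35, limma adjusted p = 0.00919). The groups of BAG3 were tight and apart, but the call was lost under median-ratio scaling (0.18, limma adjusted p = 0.109) and upper-quartile scaling (0.20, adjusted p = 0.0782). DNAJB2 fell by 0.78, DNAJB4 by 0.54 and BAG1 by 0.34. DNAJB2 was at 0.843, 1.15 and 1.19 FPKM in 3D and at 2.87, 2.47 and 2.30 in 2D. Its 3D libraries alone would not have passed the filter. The calls of DNAJB4 and BAG1 were each lost without 3D replicate 2 (limma adjusted p = 0.0628 and 0.0666) and without 3D replicate 3 (0.0584 and 0.0552). BAG1 was also lost without 2D replicate 2 (0.0621), and DNAJB4 without 2D replicate 1 (0.0598), without 2D replicate 3 (0.055) and with no filter (0.0557). ST13, DNAJA2 and DNAJB6 had log2 changes of 0.06, 0.13 and -0.01 and did not pass. STUB1, the ubiquitin ligase CHIP, had a change of -0.23 (limma adjusted p = 0.0888) and was called lower under both rescalings (-0.39 and -0.37) and without 3D replicate 1 (-0.30, adjusted p = 0.0415).

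All 15 co-chaperones of HSP90 were tested, of which 6 were higher, 1 lower and 8 did not pass (median 0.19), beside 33.3% higher and 18.1% lower among all tested genes. Under median-ratio scaling 3 were higher and 2 lower, beside 24.6% and 24.5%. FKBP5, an immunophilin that restrains glucocorticoid receptors and is induced by them, was at 8.73, 7.40 and 7.97 FPKM in 3D and 2.94, 3.00 and 3.53 in 2D. All 3D libraries were above all 2D libraries (log2 change 1.12, SE 0.10, limma adjusted p = 0.000398). PPP5C, a phosphatase bound to HSP90, rose by 0.90 and STIP1, the adaptor between HSP70 and HSP90, by 0.64 on the log2 scale. CHORDC1 had a change of 0.34 (limma adjusted p = 0.0433), which passed narrowly and was lost with no filter, under both rescalings and without any single library except 2D replicate 3. AHSA1, CDC37, FKBP4 and PTGES3, which activate or load HSP90 or hold it in its client-bound state, had changes of 0.09, 0.23, -0.23 and 0.18 and did not pass. FKBP4 was called lower without 3D replicate 1 (-0.39, limma adjusted p = 0.0126), and PTGES3 higher without 2D replicate 1 (0.39, adjusted p = 0.0426).

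Of 8 small heat shock proteins, 1 reached the filter. HSPB1, the actin-protecting HSP27, was at 13.3 ± 2.48 FPKM in 3D and 11.4 ± 1.35 in 2D and did not pass (log2 change 0.20, limma adjusted p = 0.300). CRYAB and HSPB8 stayed under 0.11 FPKM in every library. Of 5 other heat shock factors and proteins that bind them, 3 were tested, of which 1 was lower and 2 did not pass, and no fitted change was above 0. HSF4, which is known for its role in the lens, fell by 0.76 on the log2 scale (limma adjusted p = 0.00189) from a mean of 1.89 FPKM in 2D to 0.696 in 3D. It was under 1 FPKM in every 3D library and passed the filter only through 2D, the group where it was higher, so its call supports nothing about the list. HSF2 was at 7.48 ± 0.603 and 7.69 ± 0.758 FPKM and did not pass (log2 change -0.03). HSBP1, which binds HSF1 trimers, had a change of -0.20 (limma adjusted p = 0.103) and was called lower under median-ratio (-0.36, adjusted p = 0.015) and upper-quartile scaling (-0.34, adjusted p = 0.0162).

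Of 21 heat-inducible genes outside the 10, some of them also in the lists above, 18 were tested, 5 were higher, 5 lower and 8 did not pass (median 0.06), beside 33.3% higher and 18.1% lower among all tested genes. Under median-ratio scaling 2 were higher and 5 lower, beside 24.6% and 24.5%. HSPD1 and HSPE1, the mitochondrial chaperonin and its lid, rose by 0.73 and 0.66. The call of HSPE1 (limma adjusted p = 0.0271) was lost with no filter (0.0854), under median-ratio (0.0658) and upper-quartile scaling (0.0618) and without 2D replicate 2 (0.085). JMJD6, a 2-oxoglutarate-dependent oxygenase, fell by 0.81 and DEDD2, a death effector domain protein, by 0.72. SERPINH1, the collagen chaperone HSP47, was at 3.20 ± 0.926 and 3.47 ± 0.989 FPKM and did not pass. Without 2D replicate 2 the list held 3 higher calls, and without 2D replicate 1 it held 3 lower calls.

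**Figure D5:**
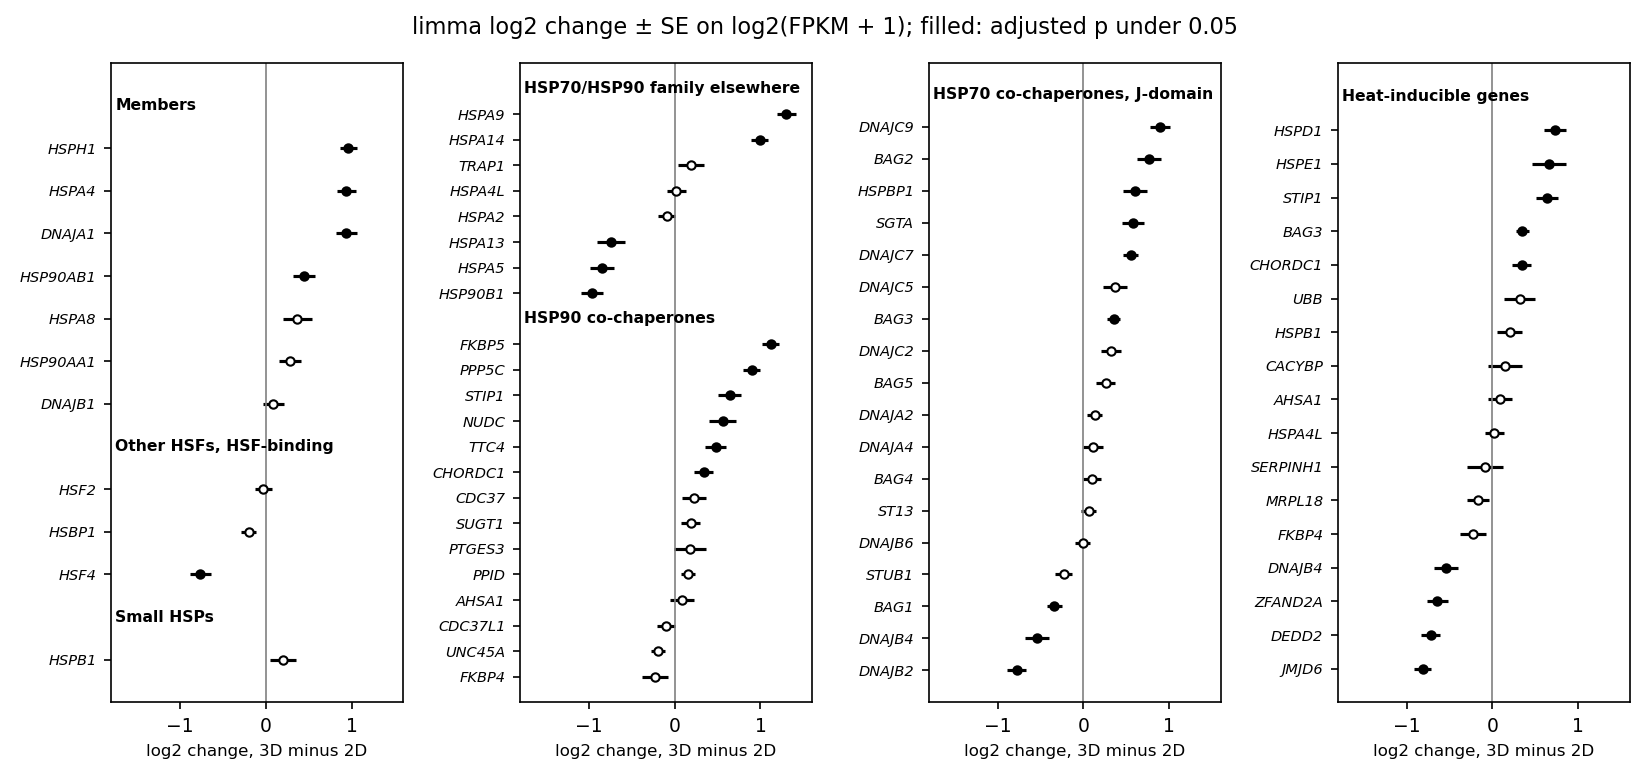
Limma log2 change (3D minus 2D) on log2(FPKM + 1) with its SE for the 7 tested members and the tested genes of the 6 partner lists, filled where the adjusted p was under 0.05. HSPH1, HSPA4 and DNAJA1 lie near 1 while DNAJB1 lies at 0.09, and the partner lists hold filled points on both sides of 0, from HSPA9 at 1.30 to HSP90B1 at -0.96. Genes in 2 lists are drawn in both, and 2 genes of the lists are not drawn.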

How the data were processed

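The authors deposited 1 table of FPKM for 62703 Ensembl IDs and 6 libraries. FastQC, fastp, HISAT2, StringTie, edgeR and GRCh38 are named in the submitters' processing notes, without roles. The sources used here do not give the annotation, the strand setting or the rule for reads matching several genes. Poly(A) enrichment comes from the labels' protocols.

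Genes that reached 1 FPKM in 3 or more libraries (12843) were compared on log2(FPKM + 1) with limma 3.58.1 (lmFit, eBayes with trend and robust, statmod 1.5.0, R 4.3.3), 2-sided, Benjamini-Hochberg over all genes, threshold 0.05. Changes on this scale understate those of low genes. Ratios within libraries used exact permutation tests. FPKM steps gave a length and whole reads (within 0.005 reads) for 12838 tested genes. As a check, 449 of 500 real rows and 0 of 500 rows mixed from different genes had such a length within 20000 bases. With voom on these reads 4314 genes were called higher and 2366 lower. Counts of so few reads carry counting error besides replicate error.

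All replicate pairs were further apart than read sampling gives (chi-square over its degrees of freedom, 15.7 to 37.1). On simulated data for the 3D against 2D test (12339 genes), calls were made for 67 of 67 genes at a simulated fold of 4, for 60 of 67 at 2, for 16 of 65 at 1.5 and for 20 of 12140 left unchanged. The simulated spread between replicates was preset and not fitted to these libraries. The changed genes were few and were drawn from those with more reads. These rates may therefore not hold for the real libraries.

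Symbols came from a name table (42300 IDs had one), positions from GENCODE 29 and promoters from RefSeq (GRCh38.p14). The 10 members and the lists were chosen with earlier results of these data known. The named genes were the members, 28 partners fixed by name, the 2 genes with the smallest adjusted p in each list and the 5 profiles most like HSPH1, HSF1 and the summed HSPA1 pair. HSPA5, HSP90B1 and the genes near or overlapping members were named after their values were seen. Of the lists, 2 genes are counted but not reported here. Alternatives were another pseudocount, other filters, rescalings, voom, a replicate block and leaving out each library.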

Additional observations from a re-analysis of the deposited data

How the results depend on the processing

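HSPA4, HSPH1 and DNAJA1 were called higher under every alternative run. Of 90 alternative values for the 7 tested members, 84 kept direction and call, 4 lost the call (all HSP90AB1) and 2 changed sign (DNAJB1, -0.05 and -0.04 under median-ratio and upper-quartile scaling). With no filter 1 member, HSPA1B, was called lower, on 10 to 34 reads a library. All genes gave 4272 higher and 2328 lower, against 3155 and 3146 under median-ratio scaling, and 2134 and 1319 with a filter of 5 FPKM, where fewer genes were tested (5715). With that filter 6 genes of the lists were lower. Leaving out 1 library gave 3475 to 4065 genes higher and 1947 to 2182 lower, 3 to 4 members higher and 0 lower, and 13 to 17 list genes higher and 10 to 14 lower. It moved the ratio of the HSPA1 pair to HSPA8 between -1.86 and -1.45, HSP90AA1 to HSP90AB1 between -0.26 and -0.11, HSPH1 to HSPA4 between 0.08 and 0.16 and DNAJB1 to DNAJA1 between -1.05 and -0.72. Sign also changed for genes not called: under median-ratio and upper-quartile scaling AHSA1 (-0.08, -0.07), DNAJA2 (-0.05, -0.03), HSPA4L (-0.11, -0.09) and ST13 (-0.12, -0.10), and on leaving out 1 library AHSA1 (from -0.05 to 0.20), ST13 (-0.01 to 0.11), HSPA4L (-0.07 to 0.10), DNAJB6 (-0.04 to 0.03), HSF2 (-0.09 to 0.03) and SERPINH1 (-0.28 to 0.04). The cause was not tested. Deviations from group means correlated at 0.084, -0.017 and 0.184 between 3D and 2D libraries of the same number. Between libraries of different numbers the values ran from -0.172 to 0.104. These values do not settle whether the replicate numbers pair the libraries. With a replicate block, 4291 genes were higher and 2382 lower, 4 members were higher and 0 lower, and the list counts were 16 and 12. The block left the mean ratio differences at -1.66, -0.17, 0.12 and -0.84, where 3 pairs cannot go below an exact p of 0.25. Few reads limit what can be said of HSPA1A, HSPA1B and HSF1, at 3 to 45 reads a library, and the cause of these low counts was not tested.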
